A study of Homo sapiens with 6 samples.

Results

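The proteasome is the multi-subunit protease that degrades ubiquitin-tagged proteins, and its genes were followed here in human RPE-1 cells after knockdown of SON, a nuclear speckle protein that acts in splicing. Members were the protein-coding genes whose symbol begins with PSMA, PSMB, PSMC, PSMD, PSME, PSMF or PSMG followed by a digit, which gave 49 of the 58735 genes in the count table. One of them, PSMC3IP, matched by name only: it encodes a recombination cofactor known as HOP2. It is not a proteasome gene but stays in the counts, medians and summed shares of the members. Proteasome genes with other symbols, such as ADRM1, SEM1 and POMP, are described separately as context.

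RPE-1 is a retinal pigment epithelial line immortalised with telomerase. The derivative used here carries GFP-tagged centrin 2 and expresses PLK4 under rtTA control in response to doxycycline. Both groups received the drug at 1 µg/mL. The siControl group (3 libraries) was transfected with a scramble siRNA and the siSON group (3 libraries) with siRNA against SON, so the induction of PLK4 is shared by both groups and its effect is not tested. RNA was sequenced as mRNA libraries, and the labels do not say whether the libraries of a group came from separate cultures or how long the knockdown lasted. The p-values therefore measure the spread between these libraries, which may be technical.

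SON, the siRNA target (chromosome 21, 33542618 to 33577481, plus strand, GRCh38), was at 295, 313 and 284 CPM in the siControl libraries and 68, 70 and 65 CPM in the siSON libraries. The fall (log2 fold change -2.14, SE 0.06, edgeR adjusted p = 6.78e-10) left no overlap between the groups. Totals ran from 54572365 to 69764836 counts per library, and a gene with 3 counts stands at 0.043 to 0.055 CPM before TMM scaling, where CPM is a gene's counts per 1000000 counts of its library, with libraries scaled by edgeR's TMM factors (a trimmed mean of log ratios). PLK4 RNA itself was lower in siSON, going from 177 ± 12.3 to 138 ± 23.3 CPM (SD, n = 3; log2 fold change -0.36, SE 0.11, edgeR adjusted p = 0.0143), and the part of this difference in the results was not tested. RPE65, RLBP1, TYRP1 and SERPINF1, which define mature retinal pigment epithelium, were under 1 CPM in every library and TYR and TTR had no counts. MITF and OTX2, also of that lineage, were between 19.7 and 37.0 CPM, and both rose (log2 fold change 0.52 for MITF and 0.82 for OTX2), as did BEST1 (0.62), while PMEL (−3.36) and SERPINF1 (−1.29) fell. Among epithelial markers, KRT18 went from a mean of 220 to 615 CPM (log2 fold change 1.48) and KRT8 from 594 to 754 CPM (0.34). EPCAM and CDH1, also epithelial, reached at most 0.161 and 0.158 CPM and were not tested. Among mesenchymal markers, CDH2 went from 359 to 568 CPM (0.66) and COL1A1 from 142 to 39.4 CPM (−1.85), while FN1 (0.03) and VIM (−0.14) did not pass the test. Of the leukocyte markers, CD3E had no counts and PTPRC reached at most 1.98 CPM. Summed over the 10 markers of retinal pigment epithelium the level was 51.9 to 53.8 CPM in siControl and 74.4 to 83.6 CPM in siSON; the part of these marker differences in the results was not tested. In bulk RNA a change in the number of cells of a state and a change in RNA per cell cannot be told apart.

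The proteasome has a barrel-shaped core particle made of alpha and beta rings, in which 3 beta subunits, PSMB5, PSMB6 and PSMB7, cut the substrate. A regulatory particle caps the barrel: its base holds a ring of ATPases (the PSMC genes) that unfold and push in the substrate, with scaffold and ubiquitin-receptor subunits, and its lid holds the deubiquitinase PSMD14. Interferon-gamma induces replacement catalytic subunits, PSMB8, PSMB9 and PSMB10, and the PA28 activator subunits PSME1 and PSME2, which shift the peptides made towards those presented on MHC class I. When proteasome activity drops, the transcription factor NFE2L1 is cleaved by DDI2, enters the nucleus and raises most subunit genes together through antioxidant-response-like elements.

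Such elements hold the core letters TGACNNNGC. The stretch from 250 to 51 bases before the RefSeq start site (GRCh38.p14) is printed for 3 members whose window holds these letters and no annotated exon, as examples in both directions. PSMD12 and PSMB3 rose after SON knockdown and PSME1 fell. Capitals mark the match, and each sequence reads 5′ to 3′ on the gene's own strand: PSMD12 at chr17:67366628-67366827 on the minus strand, PSMB3 at chr17:38752491-38752690 and PSME1 at chr14:24135944-24136143, both on the plus strand.
PSMD12: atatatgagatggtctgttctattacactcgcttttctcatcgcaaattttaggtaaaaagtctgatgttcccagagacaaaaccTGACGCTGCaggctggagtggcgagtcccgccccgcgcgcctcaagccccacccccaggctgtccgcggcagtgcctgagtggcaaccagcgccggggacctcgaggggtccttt
PSMB3: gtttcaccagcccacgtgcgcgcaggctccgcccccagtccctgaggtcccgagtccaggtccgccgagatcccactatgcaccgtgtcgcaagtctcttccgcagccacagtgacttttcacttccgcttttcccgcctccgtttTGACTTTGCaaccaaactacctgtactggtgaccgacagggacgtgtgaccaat
PSME1: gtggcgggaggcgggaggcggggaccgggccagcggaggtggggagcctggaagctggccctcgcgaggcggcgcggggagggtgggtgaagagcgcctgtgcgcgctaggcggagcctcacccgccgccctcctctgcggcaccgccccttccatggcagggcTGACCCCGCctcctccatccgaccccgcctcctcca
RefSeq gave a promoter window of 300 bases (250 before to 50 after the start) for 43 of the 49 members, with several windows for 9 of them (53 in all), and a gene was counted if any of its windows held the letters. TGACNNNGC, searched on both strands, was in 15 of the 43 (34.9%), against 16.1% of 27305 genes with a window and 19.4% of the 10299 protein-coding genes that were also tested. The match occurred in 10 of the 30 members that rose and in 4 of the 9 that fell, so windows of both directions held matches. Not all matches lay before the start: the only ones of PSMD1 and PSMC4 were 39 and 27 bases after it. The ETS-type letters CCGGAAG were in 37.2% of the 43, against 12.2% of all genes with a window and 21.7% of the tested protein-coding ones. CCAAT was in 48.8%, against 39.7% and 43.2%, GGGCGG in 69.8%, against 48.3% and 76.4%, and TATAAA in 11.6%, against 14.0% and 8.57%. These are matches of letters in a window, and binding was not measured.

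Most proteasome genes were higher after SON knockdown. Of the 49 members, 47 passed the filter on low counts, 35 rose, 9 fell, and 3 did not pass the test (edgeR quasi-likelihood, Benjamini-Hochberg adjusted p under 0.05 over all genes). The knockdown changed a large share of all genes, so these counts stand against a high background: 71.7% of the 16591 genes tested were called, 35.2% higher and 36.5% lower, while 74.5% of the tested members were higher and 19.1% lower. CPM did not overlap between the groups for 44 of 47 members, against 75.1% of all genes tested. The members' median log2 fold change was 0.68, against −0.03 over all genes tested and 0.03 over the protein-coding ones. Without PSMC3IP, 46 members were tested: 35 rose (76.1%), 8 fell (17.4%) and the median was again 0.68.

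Genes at the level of the proteasome genes rose more often than all genes did. Among the 4052 genes between 37.5 and 155 CPM, the lower and upper quartiles of the members, 82.5% were called, 55.1% were higher and the median was 0.25. Scaling matters to the size but less to the split: with library size alone 32 members rose and 11 fell, with a median of 0.49 against −0.22 for all genes, and the split over all genes moved from 5834 higher and 6054 lower to 4441 higher and 7351 lower. With cyclic loess, a scaling that follows expression level, 33 members rose and 10 fell, with a median of 0.40 against 0.04. As a share of all counts, without TMM factors, the members took 4799, 4753 and 4873 CPM in siControl and 6790, 6449 and 6563 CPM in siSON, a ratio of 1.37 between the means (4808 ± 60.6 and 6601 ± 174, SD, n = 3 each).

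**Figure D1:**
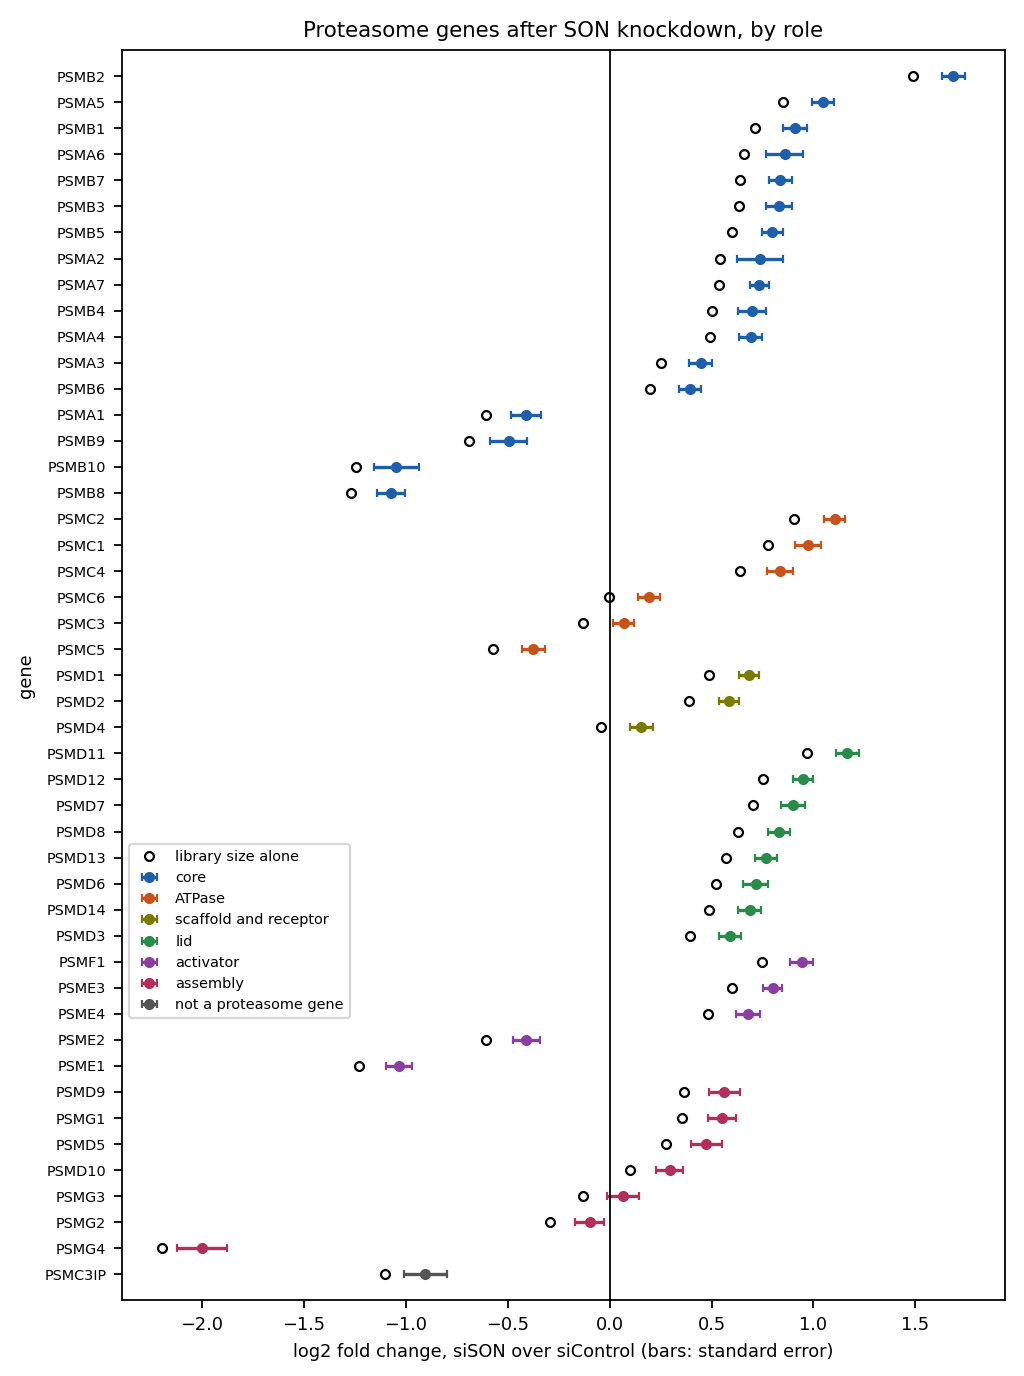
Log2 fold change (siSON over siControl) of the 47 tested members, grouped and coloured by role. Filled points with bars are edgeR estimates with TMM scaling and their standard errors, and open circles are the same with library size alone. All 8 lid genes lie to the right of 0 under both scalings. PSMB8, PSMB9, PSMB10, PSME1, PSME2 and PSMG4 lie to the left under both, as do PSMA1, PSMC5, PSMG2 and PSMC3IP.

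**Figure D2:**
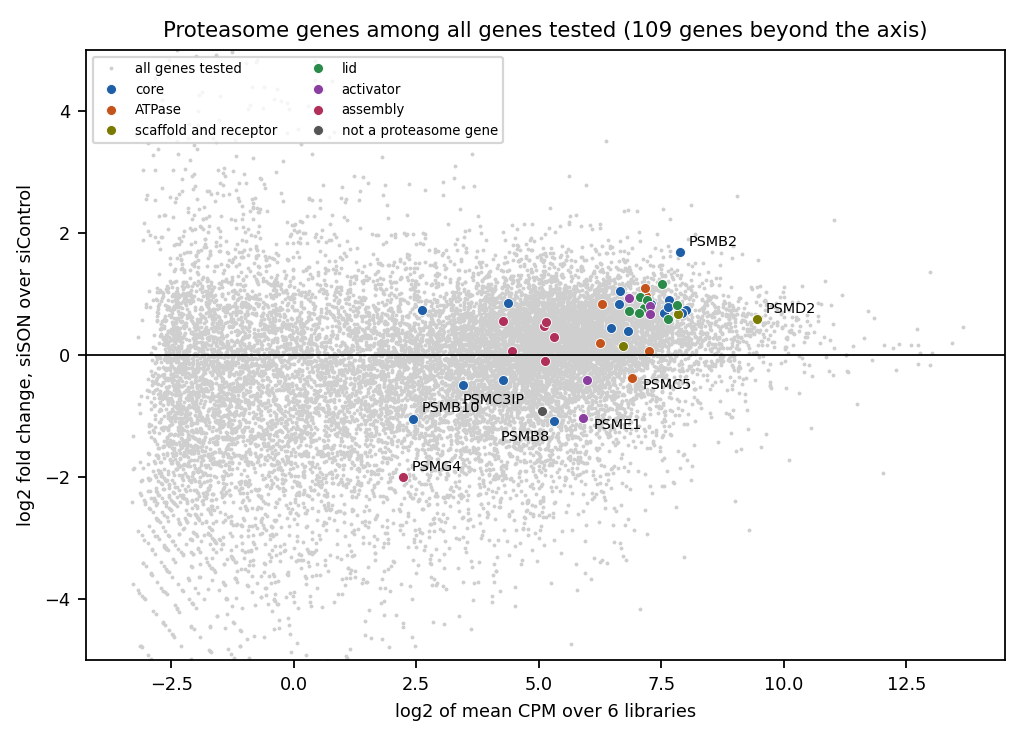
Log2 fold change against the log2 of mean CPM over the 6 libraries, with the 16591 genes tested in grey and the members in colour. The vertical axis is cut, so the genes with the largest changes are not seen (the full range is −9.13 to 9.62). Most members sit above 0 on the right side of the plot, and PSMG4, PSMB8, PSMB10 and PSME1 sit below −1.

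In the core particle, constitutive and interferon-inducible genes went in opposite directions, with PSMA1 as the exception. Of the 14 genes of the constitutive core (PSMA1 to PSMA7 and PSMB1 to PSMB7), 13 rose and PSMA1 fell, with a median log2 fold change of 0.77. Their summed share rose from 1479 ± 18.5 to 2309 ± 79.1 CPM on the same scale. PSMB2, a structural beta subunit, was the tested member with the largest fold rise (chromosome 1, 35599544 to 35641844, minus strand, GRCh38). Its level was 117, 107 and 109.6 CPM in the siControl libraries and 376, 341 and 356 CPM in the siSON libraries. Every siSON library was thus over 3 times the mean of siControl for this gene (log2 fold change 1.69, SE 0.06, edgeR adjusted p = 1.99e-09).

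PSMA5, an alpha-ring subunit, was at 67.2, 63 and 67.6 CPM in the siControl libraries and 141, 134 and 134 CPM in the siSON libraries. The groups were far apart (log2 fold change 1.05, SE 0.05, edgeR adjusted p = 2.68e-08). PSMB1, another structural beta subunit, was at 141, 136 and 144 CPM in the siControl libraries and 282, 248 and 261 CPM in the siSON libraries, again with no overlap (log2 fold change 0.91, SE 0.06, edgeR adjusted p = 1.1e-07). The other alpha genes that rose were PSMA6 (log2 fold change 0.86), PSMA2 (0.74), PSMA7 (0.73), PSMA4 (0.69) and PSMA3 (0.45), and the other structural beta genes were PSMB3 (0.83) and PSMB4 (0.70). In siSON replicate 1, which had the highest value of its group for PSMB2, PSMA5 and PSMB1, the members' summed share was also the highest. The groups did not overlap for any of these genes.

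PSMA1 fell from 22 ± 0.0235 to 16.6 ± 0.743 CPM (SD, n = 3; log2 fold change -0.41, SE 0.07, edgeR adjusted p = 0.0004). In GENCODE release 29 (GRCh38), another gene model on the same strand covers 53.2% of its representative transcript, the one with the best APPRIS rank, and the same holds for 52.5% of PSMA2 and 81.0% of PSMA6. Per kilobase of transcript their levels in siControl were 14.6 for PSMA1, 3.11 for PSMA2 and 14.3 for PSMA6, where the other alpha genes ranged from 17.7 (PSMA5) and 32.6 (PSMA4) to 193 CPM per kilobase (PSMA7). How the authors' counting treated reads that fall in 2 gene models is not given in the sources used here, so the values of PSMA1, PSMA2 and PSMA6 are uncertain. The overlapping models themselves (AC018523.2, AC010132.3 and AL121594.1) were at 0 to 0.33 CPM. PSMA8, the testis form of an alpha subunit, had no counts in any library, and PSMB11, the thymus-specific catalytic subunit, had at most 0.0786 CPM; neither was tested.

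The catalytic subunits split by type: PSMB5, PSMB6 and PSMB7 rose, and their interferon-inducible replacements PSMB8, PSMB9 and PSMB10 fell. PSMB5, which gives the chymotrypsin-like activity, was at 141, 146 and 149 CPM in the siControl libraries and 265, 244 and 249 CPM in the siSON libraries (log2 fold change 0.80, SE 0.05, edgeR adjusted p = 1.3e-07). PSMB6, the caspase-like subunit, was at 98.6, 94.5 and 98.1 CPM in the siControl libraries and 121, 132 and 130.1 CPM in the siSON libraries (log2 fold change 0.39, SE 0.05, edgeR adjusted p = 5.74e-05). PSMB7, the trypsin-like subunit, was at 114, 113 and 109 CPM in the siControl libraries and 214, 192 and 194 CPM in the siSON libraries (log2 fold change 0.84, SE 0.06, edgeR adjusted p = 1.58e-07). All siSON libraries were above all siControl libraries for each of the 3 genes.

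PSMB8 (also called LMP7; chromosome 6, 32840717 to 32844703, minus strand), which replaces PSMB5, was at 54.9, 53.1 and 53.9 CPM in the siControl libraries and 27.5, 24 and 25.4 CPM in the siSON libraries (log2 fold change -1.07, SE 0.07, edgeR adjusted p = 1.12e-07). PSMB9 (LMP2), which replaces PSMB6, was at 12, 13.4 and 13 CPM in the siControl libraries and 9.29, 8.61 and 9.36 CPM in the siSON libraries (log2 fold change -0.49, SE 0.09, edgeR adjusted p = 0.000463). PSMB10 (MECL-1), which replaces PSMB7, was at 7.24, 7.09 and 7.52 CPM in the siControl libraries and 3.6, 3.41 and 3.56 CPM in the siSON libraries (log2 fold change -1.05, SE 0.11, edgeR adjusted p = 5.67e-06). Here all siSON libraries were below all siControl libraries. For PSMB10, 45.3% of the representative transcript lies in a same-strand gene model, AC040162.1, which had 0.749 to 1.34 CPM in siControl and 1.73 to 2.60 CPM in siSON (log2 fold change 1.02), and its part in the PSMB10 value was not tested.

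Ratios within a library do not depend on scaling by a factor for each library. With cyclic loess, which follows expression level, they can change. Its log2 fold changes were −1.15 for PSMB8 against 0.48 for PSMB5, and −0.30 for PSMB9 against 0.14 for PSMB6. PSMB10 stood at −0.72 against 0.55 for PSMB7. The count ratio of PSMB8 to PSMB5 was 0.390, 0.364 and 0.361 in siControl and 0.104, 0.0984 and 0.102 in siSON. Per kilobase, PSMB8 made up 30.0% ± 0.894 of the sum of both in siControl and 10.5% ± 0.263 in siSON (SD, n = 3). The ratio of PSMB9 to PSMB6 went from 0.132 ± 0.00995 to 0.0714 ± 0.00589, and that of PSMB10 to PSMB7 from 0.0652 ± 0.00321 to 0.0177 ± 0.00073. On the log2 scale the differences were −1.87, −0.89 and −1.88, so the PSMB9 pair moved least. In a 2-sided exact permutation test each of the 8 ratios compared in all gave p = 0.1 (0.1 after adjustment over the 8), which is the smallest value that 3 against 3 libraries allow.

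**Figure D3:**
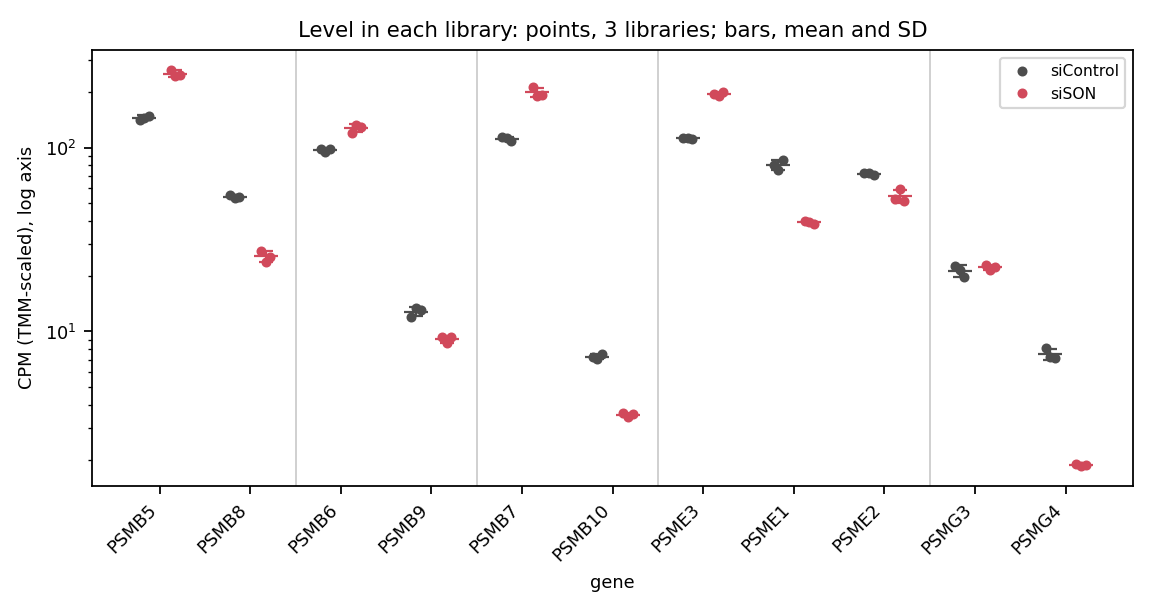
TMM-scaled CPM on a log axis for the catalytic pairs, the PA28 genes and PSMG3 with PSMG4. Points are the 3 libraries of each group and bars show the mean and SD. PSMB5, PSMB6, PSMB7 and PSME3 are higher in siSON, PSMB8, PSMB9, PSMB10, PSME1, PSME2 and PSMG4 are lower, and the PSMG3 points overlap.

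The ATPases of the base did not move together. PSMC2, PSMC1, PSMC4 and PSMC6 rose, PSMC5 fell and PSMC3 did not pass the test, although the 6 form a single ring. PSMC2 was at 91.8, 89 and 93.6 CPM in the siControl libraries and 203, 189.7 and 197 CPM in the siSON libraries (log2 fold change 1.10, SE 0.05, edgeR adjusted p = 1.3e-08). PSMC1 was at 101, 93.8 and 101 CPM in the siControl libraries and 210.4, 183 and 189 CPM in the siSON libraries (log2 fold change 0.98, SE 0.06, edgeR adjusted p = 1.39e-07), and 82.1% of its representative transcript overlaps NRDE2 on the opposite strand, which was at 14.1 to 16.7 CPM in all libraries. PSMC4 was at 58.4, 54 and 56.5 CPM in the siControl libraries and 107, 93.3 and 101 CPM in the siSON libraries (log2 fold change 0.83, SE 0.06, edgeR adjusted p = 4.74e-07). These 3 ATPase genes had the clear rises.

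PSMC5 was at 142, 130.2 and 131 CPM in the siControl libraries and 107, 105 and 98.6 CPM in the siSON libraries (log2 fold change -0.38, SE 0.06, edgeR adjusted p = 0.00012). It fell while FTSJ3, the neighbour that covers 27.2% of its transcript on the opposite strand, rose by 0.61 on the log2 scale (edgeR adjusted p = 1.2e-06); whether the counting used strand is not given in the sources used here. PSMC6 was at 70.1, 70.5 and 73.8 CPM in the siControl libraries and 81.6, 84.5 and 79 CPM in the siSON libraries. Its groups did not overlap but the difference was small (log2 fold change 0.19, SE 0.06, edgeR adjusted p = 0.00842), and it was −0.01 with cyclic loess and −0.004 with library size alone. Without siControl replicate 1 or without siControl replicate 2 the edgeR adjusted p of PSMC6 was 0.0523 and 0.0712 respectively. PSMC3 was at 150.0, 143 and 152 CPM in the siControl libraries and 151, 159 and 157 CPM in the siSON libraries, with overlapping groups (log2 fold change 0.07, SE 0.05, edgeR adjusted p = 0.25), and was lower with library size alone (−0.13, edgeR adjusted p = 0.0424) and with cyclic loess (−0.22, limma adjusted p = 0.00202).

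The scaffold and receptor subunits of the base rose under TMM scaling. PSMD2, a large scaffold that docks ubiquitin-like domains, had the highest CPM of all members: 575, 538 and 564 CPM in the siControl libraries and 861, 802 and 854 CPM in the siSON libraries (log2 fold change 0.59, SE 0.05, edgeR adjusted p = 9.86e-07). PSMD1, the other large scaffold, was at 172, 175 and 184 CPM in the siControl libraries and 294, 276 and 283 CPM in the siSON libraries (log2 fold change 0.68, SE 0.05, edgeR adjusted p = 3.46e-07). PSMD4, a ubiquitin receptor, was at 101, 99.4 and 100.3 CPM in the siControl libraries and 118, 106 and 109.9 CPM in the siSON libraries. The PSMD4 rise was slight (log2 fold change 0.16, SE 0.06, edgeR adjusted p = 0.0267): the value was −0.09 with cyclic loess and −0.04 with library size alone, and its call was lost without any 1 of the siControl libraries or without siSON replicate 1 (edgeR adjusted p between 0.0513 and 0.128).

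In the lid, all 8 genes rose, with log2 fold changes from 0.59 (PSMD3) to 1.17 (PSMD11), and all 8 also rose with library size alone and with cyclic loess. The lid's summed share went from 985.5 ± 18.8 to 1524 ± 56.8 CPM without TMM factors. PSMD11, a structural subunit of the lid, was at 114, 112 and 112 CPM in the siControl libraries and 274, 239.9 and 247 CPM in the siSON libraries (log2 fold change 1.17, SE 0.06, edgeR adjusted p = 1.99e-08). PSMD12, whose upstream sequence is printed above, was at 91.3, 90.7 and 90.8 CPM in the siControl libraries and 181, 171 and 175 CPM in the siSON libraries (log2 fold change 0.95, SE 0.05, edgeR adjusted p = 2.44e-08). PSMD7, the partner of the deubiquitinase, was at 106, 96.9 and 105 CPM in the siControl libraries and 204, 185 and 186 CPM in the siSON libraries (log2 fold change 0.90, SE 0.06, edgeR adjusted p = 1.53e-07); a gene model on the opposite strand, AC009120.2, covers 50.4% of its transcript and was at 1.08 to 2.97 CPM. For each of these 3 genes the lowest siSON library was above the highest siControl library. The deubiquitinase PSMD14 rose from 102 ± 5.02 to 164 ± 6.75 CPM (SD, n = 3; log2 fold change 0.69), and PSMD8 (0.83), PSMD13 (0.77) and PSMD6 (0.72) were in the same range.

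The activators, which open the core in place of the regulatory particle, went in opposite directions by type. PSMF1 (PI31), a core-binding regulator described as an inhibitor, was at 78.1, 77.6 and 78.5 CPM in the siControl libraries and 159, 142 and 149.9 CPM in the siSON libraries (log2 fold change 0.94, SE 0.06, edgeR adjusted p = 7.1e-08). PSME3, which forms the nuclear PA28-gamma ring, was at 113, 113 and 111 CPM in the siControl libraries and 196, 191 and 201 CPM in the siSON libraries (log2 fold change 0.80, SE 0.05, edgeR adjusted p = 7.04e-08). PSME4 (PA200), the nuclear activator linked to histone turnover, was at 114, 126 and 117 CPM in the siControl libraries and 181, 189 and 201 CPM in the siSON libraries (log2 fold change 0.68, SE 0.06, edgeR adjusted p = 1.19e-06). All 3 rose without overlap between the groups.

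PSME1 (chromosome 14, 24136158 to 24138967, plus strand) and PSME2, the alpha and beta subunits of interferon-inducible PA28, both fell. PSME1 was at 80.4, 75.1 and 85.1 CPM in the siControl libraries and 40, 39.3 and 38.3 CPM in the siSON libraries (log2 fold change -1.03, SE 0.06, edgeR adjusted p = 8.17e-08). PSME2 was at 72.9, 72.7 and 71.2 CPM in the siControl libraries and 52.5, 59.6 and 51.2 CPM in the siSON libraries (log2 fold change -0.41, SE 0.07, edgeR adjusted p = 0.0002), with 12% of its transcript overlapping RNF31 on the opposite strand. The ratio of PSME3 to PSME1 counts went from 1.41 ± 0.101 to 5.01 ± 0.2, and that of PSME1 to PSME2, which share a ring, from 1.11 ± 0.0814 to 0.722 ± 0.0552 (SD, n = 3). All 3 siSON libraries were above all 3 siControl libraries for the first ratio and below them for the second. The ratio of PSME4 to PSMF1 moved less, from 1.52 ± 0.0847 to 1.27 ± 0.114.

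The assembly factors with PSM symbols moved least as a group, with 4 rising, 1 falling and 2 not passing the test. Their summed share went from 185.8 ± 2.31 to 192.9 ± 2.34 CPM without TMM factors. POMP and PAAF1, which have other symbols, are not part of this group and are given with the context genes. The base chaperones PSMD9, PSMD5 and PSMD10, which help the ATPases pair, all rose. PSMD9 was at 16.3, 14.8 and 15.5 CPM in the siControl libraries and 23.9, 22.9 and 21.9 CPM in the siSON libraries (log2 fold change 0.56, SE 0.08, edgeR adjusted p = 5.25e-05), with the same-strand models AC069503.2 and WDR66 over 28.2% and 15.7% of its transcript. PSMD5 was at 27.5, 30.6 and 27.9 CPM in the siControl libraries and 42.1, 36.7 and 40.6 CPM in the siSON libraries (log2 fold change 0.47, SE 0.08, edgeR adjusted p = 0.000177). PSMD10 (gankyrin) was at 33.5, 37.3 and 36.6 CPM in the siControl libraries and 43.5, 45.1 and 43.1 CPM in the siSON libraries (log2 fold change 0.29, SE 0.07, edgeR adjusted p = 0.00189), and with library size alone its difference was 0.10 (edgeR adjusted p = 0.23). Their log2 fold changes, 0.29 to 0.56, were below those of PSMC1, PSMC2 and PSMC4; this difference was not tested.

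The core chaperones PSMG1 to PSMG4 work as pairs, PSMG1 with PSMG2 and PSMG3 with PSMG4, and in both pairs the ratio of the partners differed between the groups without overlap. PSMG1 was at 30.5, 26.6 and 28.6 CPM in the siControl libraries and 41.8, 42.4 and 41.5 CPM in the siSON libraries (log2 fold change 0.55, SE 0.07, edgeR adjusted p = 2.58e-05). PSMG2 was at 34.1, 35.4 and 39.1 CPM in the siControl libraries and 34.5, 34.1 and 32.9 CPM in the siSON libraries, with overlapping groups (log2 fold change -0.10, SE 0.07, edgeR adjusted p = 0.241), and CEP76 covers 17.3% of its transcript on the opposite strand. Without replicate 1 of both groups, a setting chosen after seeing the data, PSMG2 was lower (−0.18, edgeR adjusted p = 0.0275), and it was also lower with library size alone (−0.30, edgeR adjusted p = 0.00389). The ratio of PSMG1 to PSMG2 counts went from 0.792 ± 0.0897 to 1.24 ± 0.0269 (SD, n = 3).

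PSMG4 (chromosome 6, 3231403 to 3303373, plus strand) was the member with the largest fold fall. Its level was 8.08, 7.3 and 7.15 CPM in the siControl libraries and 1.9, 1.86 and 1.87 CPM in the siSON libraries, a ratio of 0.25 between the group means (log2 fold change -2.00, SE 0.12, edgeR adjusted p = 9.02e-08). PSMG3 was at 22.8, 21.6 and 19.8 CPM in the siControl libraries and 23, 21.7 and 22.4 CPM in the siSON libraries, with overlapping groups (log2 fold change 0.07, SE 0.08, edgeR adjusted p = 0.469; −0.13 with library size alone). The ratio of PSMG3 to PSMG4 counts therefore went from 2.84 ± 0.0986 to 11.9 ± 0.249, with all 3 siSON libraries above all 3 siControl libraries. PSMC3IP, which is not a proteasome gene, was at 41.8, 44.5 and 45.1 CPM in the siControl libraries and 19.1, 25.3 and 25.8 CPM in the siSON libraries (log2 fold change -0.91, SE 0.11, edgeR adjusted p = 1.37e-05); MLX covers 54.4% of its transcript on the opposite strand and had a log2 fold change of −0.34.

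Gene structure was compared with the fold changes as a description. Across the 47 tested members, Spearman's rho between the longest intron of the representative transcript and the log2 fold change was 0.54, against 0.239 across 12699 tested protein-coding genes with introns. For the median intron it was 0.336 against 0.246, and for GC content of the transcript −0.403 against −0.206. These points are genes measured in the same 6 libraries and are not independent replicates. Members that rose had a median longest intron of 4991 bases and those that fell one of 1284 bases. Over the tested protein-coding genes these medians were 12610 and 6720 bases, so members that rose were below both.

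Of the 11 members whose median intron was under 300 bases, 5 rose (PSMB4, PSMB6, PSMC4, PSMD2 and PSME3), 5 fell (PSMB10, PSMC5, PSME1, PSME2 and PSMC3IP) and PSMC3 did not pass the test. Over all tested protein-coding genes of that class, 20.4% rose and 64.9% fell. Of the 36 members with longer introns 30 rose, 4 fell and 2 did not pass the test, where 42.9% of the protein-coding genes of that class rose and 34.0% fell. PSMB4, with a longest intron of 393 bases, rose from 186 ± 6.78 to 302 ± 29.6 CPM (SD, n = 3), while PSMG4, with a longest intron of 4487 bases, was the gene that fell most. Among the 35 tested members that share at most 10% of their representative transcript with another gene model, 29 rose, 4 fell and 2 did not pass the test. Among the 12 that share more, 6 rose, 5 fell and 1 did not. Exons of other transcripts are outside this measure. Over all exons, PSMG4 shares 1388 bases with SLC22A23, PSMB8 618 with PSMB8-AS1 and PSME3 300 with BECN1, each on the opposite strand.

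**Figure D4:**
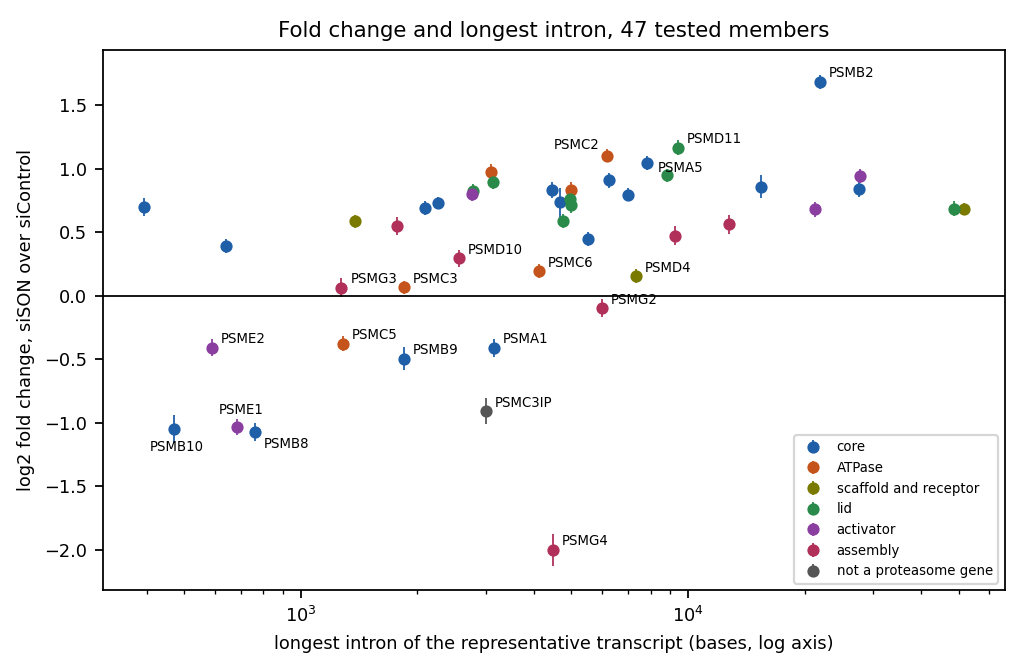
Log2 fold change with its standard error against the longest intron of the representative transcript (bases, log axis) for the 47 tested members, coloured by role. PSMB10, PSMB8, PSME1 and PSME2 lie at the lower left with longest introns under 1000 bases, while PSMB4 and PSMB6 at the same lengths lie above 0.

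Other genes of the pathway were read from 5 lists. Of 54 tested genes 34 rose (63.0%, against 35.2% of all genes tested) and 16 fell (29.6%, against 36.5%). The genes of the lists had a median level of 95.2 CPM, against 14.3 CPM for all genes tested. Among the 4052 genes between 37.5 and 155 CPM, 55.1% rose and 27.4% fell. With library size alone 26 of the 54 rose and 18 fell, against 1723 and 1494 of the 4052. With cyclic loess 24 rose and 21 fell, against 1760 and 1476. Both backgrounds apply to the counts of each list. On the list of proteasome subunits and related factors with other symbols, all 5 genes rose. With library size alone 4 of the 5 were called higher, and with cyclic loess also 4. The list includes PAAF1 (log2 fold change 0.69) and AKIRIN2 (0.48). POMP, the chaperone that drives core maturation, was at 80.3, 77.2 and 76.4 CPM in the siControl libraries and 157, 141 and 149.7 CPM in the siSON libraries (log2 fold change 0.94, SE 0.06, edgeR adjusted p = 7.84e-08). ADRM1, a ubiquitin receptor of the base, was at 109.8, 97.5 and 100.5 CPM in the siControl libraries and 189, 178 and 191 CPM in the siSON libraries (log2 fold change 0.86, SE 0.06, edgeR adjusted p = 2.04e-07). SEM1, a small lid subunit, was at 70.9, 67.3 and 74.1 CPM in the siControl libraries and 81.9, 78.9 and 76.8 CPM in the siSON libraries (log2 fold change 0.16, SE 0.06, edgeR adjusted p = 0.0274), and the value was −0.04 with cyclic loess and −0.03 with library size alone. Without siControl replicate 1 or without siControl replicate 2 the edgeR adjusted p of SEM1 was 0.0996 and 0.21 respectively. POMP and ADRM1 were thus in the range of the core and lid genes, and SEM1 was near PSMD4.

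Among enzymes and shuttles that bind the proteasome, 12 of 16 tested rose and 4 fell. The deubiquitinase USP14 was at 137, 136 and 139 CPM in the siControl libraries and 206, 199 and 215 CPM in the siSON libraries (log2 fold change 0.59, SE 0.05, edgeR adjusted p = 9.94e-07). The other bound deubiquitinase, UCHL5, was at 32.8, 35.5 and 34.3 CPM in the siControl libraries and 19.3, 22.9 and 25.7 CPM in the siSON libraries (log2 fold change -0.60, SE 0.10, edgeR adjusted p = 0.000209), so the pair diverged. The ubiquitin shuttle RAD23B rose, with a log2 fold change of 0.75. ZFAND2A, a heat- and arsenite-induced proteasome binder, was at 13.3, 13.2 and 14.6 CPM in the siControl libraries and 37.3, 31.7 and 32.8 CPM in the siSON libraries (log2 fold change 1.31, SE 0.09, edgeR adjusted p = 1.37e-07). DDI2, the protease that activates NFE2L1, was at 19.3, 19.6 and 18.5 CPM in the siControl libraries and 53, 53.8 and 67.6 CPM in the siSON libraries (log2 fold change 1.61, SE 0.10, edgeR adjusted p = 6.6e-08).

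Of 10 genes tied to transcription of proteasome genes, 7 rose and 2 fell. NFE2L1 was at 409.8, 414 and 432 CPM in the siControl libraries and 620.3, 606 and 614 CPM in the siSON libraries (log2 fold change 0.55, SE 0.04, edgeR adjusted p = 7.38e-07). NFE2L2, its relative in the oxidative stress response, was at 125, 131 and 138 CPM in the siControl libraries and 137, 141 and 138 CPM in the siSON libraries, with overlapping groups (log2 fold change 0.08, SE 0.05, edgeR adjusted p = 0.214), and was lower with cyclic loess (−0.20, limma adjusted p = 0.00631). NFE2L3, the third relative, was at 13.7, 16.6 and 15.1 CPM in the siControl libraries and 4.27, 4.27 and 3.66 CPM in the siSON libraries (log2 fold change -1.89, SE 0.11, edgeR adjusted p = 6.48e-08). Of the 3 related factors, 1 rose, 1 fell and 1 did not pass the test. NGLY1, the deglycosylase that processes NFE2L1, had a log2 fold change of 0.67.

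In the ubiquitin and p97 list, 7 of 11 rose and 2 fell. UBA1, the main ubiquitin-activating enzyme, was at 437, 438 and 439 CPM in the siControl libraries and 114, 131 and 129 CPM in the siSON libraries (log2 fold change -1.81, SE 0.06, edgeR adjusted p = 1.69e-09). The p97 segregase gene VCP rose (0.67) with its cofactors NPLOC4 (1.14) and UFD1 (0.50). UBB (-0.02) and FAF1 (-0.07) did not pass the test. With cyclic loess 4 genes of this list rose and 6 fell, so its split depends on the scaling.

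The antigen-processing list was the only one of the 5 with more falls than rises under TMM scaling: 8 of 12 fell and 3 rose. HLA-B was at 277, 254 and 262 CPM in the siControl libraries and 99, 113 and 110.1 CPM in the siSON libraries (log2 fold change -1.30, SE 0.06, edgeR adjusted p = 1.45e-08). TAPBP, the tapasin gene, was at 195, 209 and 206 CPM in the siControl libraries and 75.6, 90.2 and 91.3 CPM in the siSON libraries (log2 fold change -1.25, SE 0.07, edgeR adjusted p = 6.16e-08). The peptide transporter genes TAP1 (-1.16) and TAP2 (-1.10), which lie beside PSMB8 and PSMB9 in the MHC region of chromosome 6, also fell, as did NLRC5 (-0.63), the class I transactivator. IRF1 (0.23), which mediates interferon-gamma induction of these genes, rose, with a log2 fold change of 0.03 (edgeR adjusted p = 0.654) with library size alone. HLA genes are polymorphic and near-identical in parts, so reads can be split between them.

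**Figure D5:**
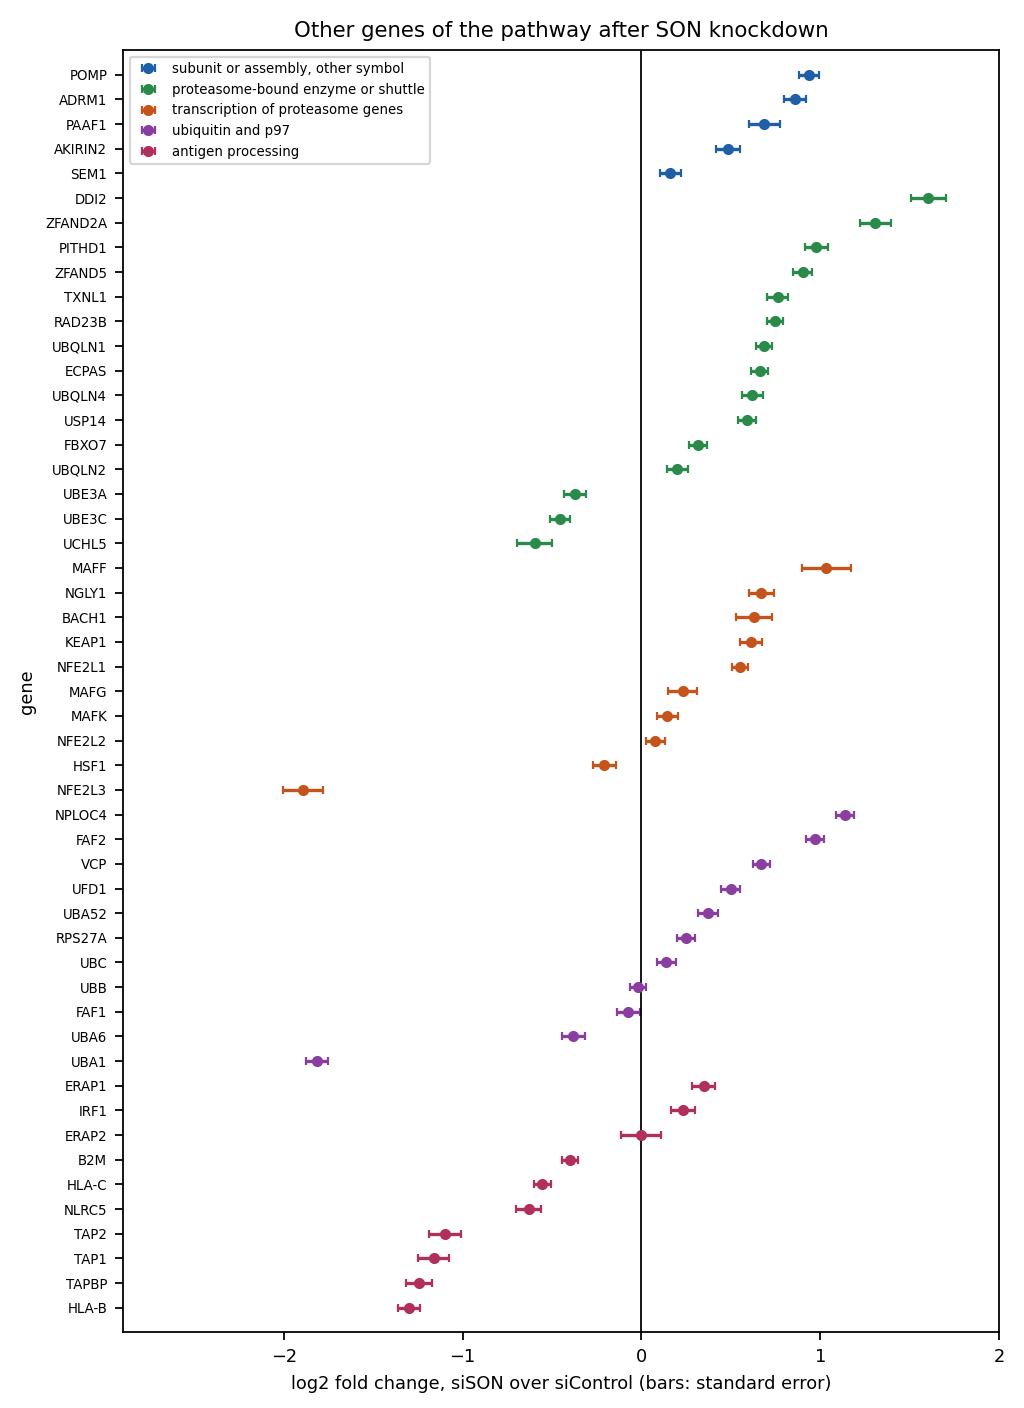
Log2 fold change with its standard error for 51 of the 54 tested genes of the 5 lists, in colour by list. POMP and ADRM1 lie with most bound enzymes to the right of 0, and HLA-B, TAPBP, TAP1 and TAP2 lie below −1.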

How the data were processed

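The data are gene counts from 6 mRNA libraries (3 siControl, 3 siSON). The counts are raw whole-number reads per gene as the authors deposited them; the submitters' processing notes name cutadapt 1.16, STAR 2.5.2a, featureCounts 1.6.2, DESeq2 1.28.1 and the build hg38, without saying which setting was used for strand or for reads in several gene models. Genes were kept by edgeR's filterByExpr with a minimum count of 10 (16591 of 58735 genes), scaled by TMM and tested with edgeR 4.0.16 (R 4.3.3) by the robust quasi-likelihood test on group alone, with Benjamini-Hochberg adjustment over all genes tested and a threshold of 0.05. Fold changes are siSON over siControl, and ± is the SD over 3 libraries. Alternatives used DESeq2 1.42.0, limma 3.58.1 (voom and cyclic loess), other scaling factors, other count filters and each library left out. The fits were tested on simulated counts with known changes. In that simulation few genes changed, as many up as down. It therefore cannot check the scaling in these data, where 71.7% of the genes tested were called. Ratios of 2 genes were compared by exact 2-sided permutation. Positions, transcript lengths, introns and overlaps come from GENCODE release 29 (all 49 members matched), and promoter windows from RefSeq (GRCh38.p14).

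Per-library values are given, in each role, for the 3 largest rises and 3 largest falls, for members that were not called or changed with the scaling, and for the catalytic subunits; among other pathway genes, for 7 chosen genes and the 8 with the largest changes; a few of these other genes are not reported here, though they stay in the counts. PSMA1, PSMB4 and PSMD14 are described outside this rule, after their values were seen, as are the other genes given by fold change alone. Members and lists were chosen with earlier results of these data known. Counting error depends on a gene's own count and not on the library total of 54572365 to 69764836 counts. PSMG4, for example, had 110, 96 and 95 counts in the siSON libraries. Its SD over those libraries (0.018 CPM) can therefore understate the error.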

Additional observations from a re-analysis of the deposited data

How the results depend on the processing

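Of the 47 tested members, 41 kept direction and call under all 15 alternatives, and PSMD4, PSMC6, PSMC3, PSMG2, PSMG3 and PSMD10 did not. The median log2 fold change of the proteasome members was 0.6838 with TMM and the replicate block, 0.4862 with library size alone, 0.3976 with cyclic loess, 0.6269 with a mean count of at least 50 and 0.6157 without replicate 1 of both groups (chosen after seeing the data, because replicate 1 differed more from the others); it was 0.632 to 0.703 with 1 library left out. The ratio of the members' summed share was 1.57 with TMM-scaled totals in place of 1.37. With library size alone the sign changed for PSMD4 (−0.0419), PSMG3 (−0.131), PSMC3 (−0.129), PSMC6 (−0.004), SEM1 (−0.0348) and NFE2L2 (−0.119). With cyclic loess it changed for PSMD4 (−0.0929), PSMC3 (−0.221), PSMC6 (−0.011), SEM1 (−0.038) and NFE2L2 (−0.196). The median of all genes tested was −0.03 with TMM, −0.22 with library size alone and 0.04 with cyclic loess. The cause of the sign changes was not tested. The labels number the libraries without saying what the numbers share. Same-numbered libraries of the groups correlated at 0.0461 to 0.194 in their deviations from the group means (mean 0.119), against −0.0595 for different numbers. For genes changed after SON knockdown the replicate block gave 12313 in place of 11888, with the same counts of members, 35 higher and 9 lower.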

Other observations

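The count table also holds 37 rows that are named after a member but are not protein-coding, 32 of them pseudogenes, of which 19 had no counts. Only 6 of the 37 had over 1% of the count of the member they are named after. PSMA3-AS1, an antisense RNA with 26.9% of the PSMA3 count, was at 29.7, 29.3 and 24.1 CPM in siControl and 20, 18.3 and 16.2 CPM in siSON (log2 fold change −0.61, SE 0.10, edgeR adjusted p = 0.000289), while PSMA3 itself rose. PSMB8-AS1 fell from 1.62 ± 0.0725 to 0.27 ± 0.0399 CPM (SD, n = 3; log2 fold change −2.58, edgeR adjusted p = 2.95e-06), in the same direction as PSMB8. PSMG3-AS1 rose from 1.24 ± 0.0646 to 2.52 ± 0.402 CPM (log2 fold change 1.03, edgeR adjusted p = 0.000403), while PSMG3 did not pass the test. The processed pseudogene PSMC1P1 rose with its parent, from 2.6 ± 0.33 to 4.61 ± 0.378 CPM (log2 fold change 0.83, edgeR adjusted p = 0.000344). PSMA6P1 (0.70, edgeR adjusted p = 0.0867) and PSME2P2 (−0.65, edgeR adjusted p = 0.0603) did not pass the test. Pseudogenes are near copies of their parents, so reads can be split between them, and the counts of these rows are uncertain.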
